A study of Mus musculus with 24 samples.

Results

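The step from 0.5 to 1 h of LPS was examined in control bone marrow-derived macrophages (BMDMs), with the question of which transcripts rose newly in this interval and which had already begun to decay. The step compared 3 LysM-Cre libraries at 1 h with 3 LysM-Cre libraries at 0.5 h, which are 6 of the 24 libraries of the series. Of 24273 genes in the table, 13901 passed the filter on low values (at least 5 on the linear scale in at least 3 libraries) and were tested. The cells were grown from the bone marrow of C57BL/6 mice in L-cell conditioned medium, kept in low serum overnight and then given 100 ng/ml of LPS, the outer membrane component of Gram-negative bacteria that TLR4 senses. The series also holds LysM-Cre cells at 0 and 2 h, used here to place the step in its time course, and cells labelled FosKO at the same times, in which LysM-Cre is combined with Fos-fl/fl. LysM-Cre places Cre in the lysozyme locus Lyz2, which is active in myeloid cells, so every library used here came from cells that carry Cre. The design text of the series calls the controls LysM-Cre, and the study's own text gives them as Fos-fl/+ with LysM-Cre. The values cannot settle which holds. If the latter holds, Cre could delete 1 Fos copy in the controls as well. The age of the mice was not given in the sources used here. Each group had 3 libraries, the labels do not say that these came from separate mice, and p-values then measure only the spread between these libraries.

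TLR4 signals through NF-κB and the MAP kinases to genes whose regulators are already present in the resting cell, so that no new protein is needed for their induction. Immediate early genes, such as Fos and Egr1, respond within minutes, and their short-lived mRNAs are lost as quickly once transcription slows. Primary response cytokine genes follow, and their products, above all interferon beta, act back on the macrophage to induce a secondary wave of genes. Feedback proteins made along the way (inhibitors of NF-κB, phosphatases of MAP kinases and proteins that degrade AU-rich mRNAs) limit the response.

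All values are the log2 values that were deposited, and a difference of 1 is a doubling. Reads per library are unknown, so the spread between libraries was the only error available. Across genes, the libraries of each time correlated closely (r 0.995 to 0.998 at 0.5 h, 0.997 to 0.998 at 1 h), and the median SD of a gene was 0.06 at both times. Markers of macrophages summed to between 17.2 and 17.3 at 0.5 h and between 17.3 and 17.4 at 1 h, with Csf1r, the CSF-1 receptor, highest. Of these 8 markers 1, the LPS co-receptor Cd14, was called in the step, against 26.8% of all genes. The summed markers of neutrophils (6.57 to 7.24), B cells (5.52 to 5.69), T cells (7.59 to 7.90, almost all of it Cd4), dendritic cells (5.39 to 5.89), stromal cells (4.48 to 5.01), mast cells or basophils (4.73 to 5.21) and erythroid cells (0.15 to 0.21) were far lower. S100a9 of the neutrophil list and Xcr1 of the dendritic cell list were called higher in the step, from 5.01 to 5.43 and from 3.92 to 4.50, and the part of other cells in the results was not tested. Lyz2 itself was at 11.33 ± 0.21 (SD, n = 3) at 0.5 h and 11.24 ± 0.16 at 1 h, and it was not called. In bulk RNA, fewer cells of a type and less RNA per cell cannot be told apart.

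A difference in 18S ribosomal RNA cut across the groups. The 18S gene Rn18s-rs5 was at 19.09 and 19.08 in replicates 1 and 2 at 0.5 h and at 18.57 in replicate 1 at 1 h, but at 16.76 in replicate 3 at 0.5 h and at 16.88 and 17.00 in replicates 2 and 3 at 1 h. The step was therefore also computed within the high set (1 against 2 libraries) and within the low set (2 against 1), and values given by 18S set carry no test unless an adjusted p or a count of calls is given. Of the genes called in the step, 3723 of 3725 had the same sign in both sets, against 71.0% of all genes tested, and since the call used the same 6 libraries this count is a description.

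Between 0.5 and 1 h the transcriptome of the control cells changed broadly. At an adjusted p under 0.05 (limma, Benjamini-Hochberg), 3725 of 13901 genes were called (26.8%), 1946 of them higher (14.0%) and 1779 lower (12.8%), around a median step of 0.00 over all genes. Changes of at least 2-fold were fewer and in the main fit mostly upward, with 190 genes higher (1.37%) and 69 lower (0.496%). The latter count was 128 without replicate 3 at 0.5 h and 29 with a pseudocount of 10. With libraries shifted to equal reference genes 144 genes were higher and 140 lower, so the upward majority depended on scaling. The libraries of the 2 times did not overlap for any of the 259 genes of the main fit, against 41.7% of all genes tested. All 259 moved by at least 0.5 in the same direction within both 18S sets. In the first step, from 0 to 0.5 h, 1007 genes were called (7.24%), 708 higher (5.09%) and 299 lower (2.15%), and 92 of them had risen by at least 2-fold (0.662%) against 9 that had fallen so far (0.0647%). The split of higher against lower calls in the later step depended on scaling, with 1515 higher and 2106 lower after quantile normalisation. With libraries shifted to equal reference genes the split was 566 higher and 3569 lower, because that shift moved the median step of all genes by -0.15.

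Genes were sorted by what each did in both steps. Rise newly meant a called rise of at least 2-fold in the later step after no call and a change within 0.25 in the first, and 64 genes did so. Another 102 genes rose on, called higher in both steps and by at least 2-fold in the later one. Of the 92 genes that had risen at least 2-fold by 0.5 h, 59 were called higher again (31 of them by at least 2-fold), 17 held their level without a call and 16 had already decayed, called lower. A further 39 genes fell newly, by at least 2-fold after no change in the first step, and 21 genes rebounded, lower at 0.5 h and higher at 1 h. Another 24 of the risers and 23 of the fallers of at least 2-fold met none of these definitions. Both steps use the 0.5 h libraries, so an error in these moves them in opposite directions, and no overlap between the steps was tested.

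**Figure D1:**
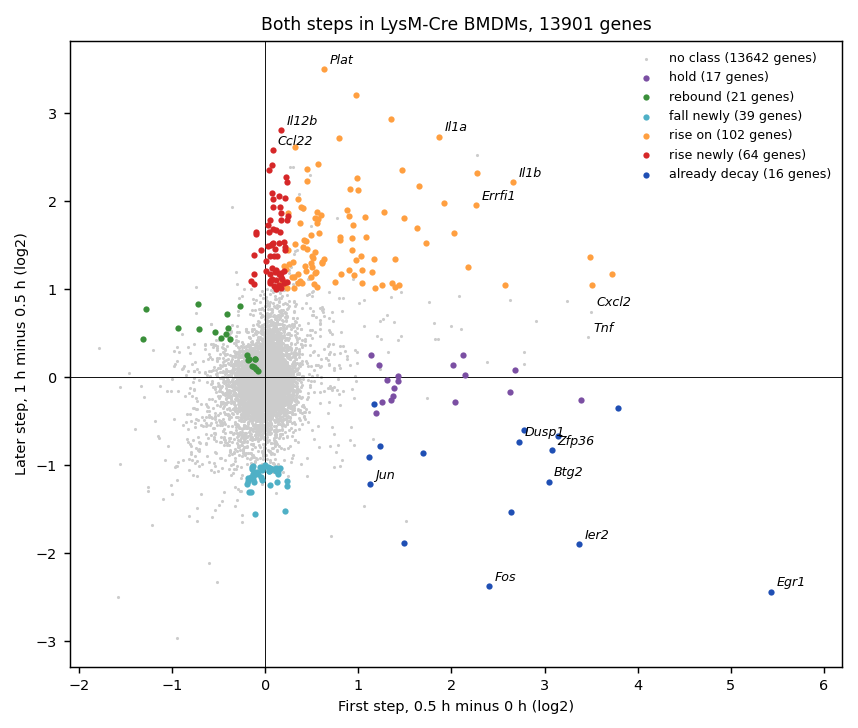
Each point is 1 of 13901 genes in LysM-Cre BMDMs, with the change from 0 to 0.5 h on the horizontal axis and the change from 0.5 to 1 h on the vertical axis (both log2), coloured by class. The 16 genes that already decayed lie at the lower right, led by Egr1 and Fos, and the 64 that rose newly stand in a narrow column above a first step of 0.

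The decaying genes were led by immediate early transcription factors. Egr1 (ENSMUSG00000038418), a zinc finger transcription factor, was at 14.19, 14.33 and 14.32 at 0.5 h and at 11.71, 11.78 and 12.04 at 1 h. All 3 libraries at 1 h lay more than 2 units below the lowest at 0.5 h. It fell by 2.44 (SE 0.10, adjusted p 6.12e-14) after a rise of 5.43 from 0 to 0.5 h, so that 16.5% of that rise was left on the linear scale. By 18S set it was -2.55 (high) and -2.41 (low). Fos (ENSMUSG00000021250), which codes for the AP-1 subunit FOS and lies on chromosome 12 from 85473890 to 85477273, was at 13.43, 13.57 and 13.56 at 0.5 h and at 11.02, 11.07 and 11.34 at 1 h. These libraries did not overlap either, and the fall of 2.37 (SE 0.09, adjusted p 1.54e-14) left 0.518% of a rise of 2.41. Ier2, an immediate early nuclear protein, went from 12.40, 12.51 and 12.50 to 10.55, 10.50 and 10.66, with no overlap. It fell by 1.90 (SE 0.06, adjusted p 5.85e-16).

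Jun, the partner of FOS in AP-1, and Btg2, an antiproliferative protein that binds deadenylases, followed at smaller size. Jun was at 12.58, 12.63 and 12.63 at 0.5 h and at 11.35, 11.37 and 11.45 at 1 h, below its mean of 11.49 before LPS. Its fall was 1.22 (SE 0.04, adjusted p 2.23e-15). Btg2 fell by 1.19 (SE 0.06, adjusted p 1.04e-12), from 12.96, 13.13 and 13.11 to 11.79, 11.83 and 12.02, and kept 36.2% of its rise. For neither gene did the libraries of the 2 times overlap.

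Feedback regulators and kinases made up much of the rest of the decaying class. Zfp36, which codes for tristetraprolin, a protein that sends AU-rich mRNAs to decay, was at 14.94, 15.05 and 15.09 at 0.5 h and at 14.10, 14.09 and 14.40 at 1 h. It fell by 0.83 (SE 0.07, adjusted p 2.66e-09) and kept 50.3% of its rise. The MAP kinase phosphatase gene Dusp1 fell by 0.73 (SE 0.04, adjusted p 2.42e-12) and kept 53.0%. Plk2, a polo-like kinase gene, fell by 0.79 (SE 0.04, adjusted p 9.59e-13), from 14.72, 14.73 and 14.71 to 13.96, 13.88 and 13.97. Map3k8, which codes for TPL-2, the kinase upstream of ERK activation in TLR4 signalling, fell least, by 0.30 (SE 0.06, adjusted p 0.000325), and its libraries did not overlap between the times. The class is small and its other members are named for that reason, after their values were seen. They were the phosphatase gene Dusp2 (-0.35), Ier3 (-0.60), Ppp1r15a (-0.67), a regulatory subunit that directs phosphatase to eIF2α, Gm17334 (-0.86), Tulp2 (-0.91), Gm17024 (-1.54) and Gm37120 (-1.88). Only the libraries of Dusp2 overlapped between the times among these 16 genes. Gm17024 is annotated as sense intronic and Gm37120 as a model awaiting experimental evidence. Tulp2 was low, with means of 3.81 at 0.5 h and 2.90 at 1 h. Its span on chromosome 7 overlaps that of Ppp1r15a on the other strand, and the part of this overlap in its value was not tested.

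The rate of loss differed widely within the class. A net halving time, 30 min divided by the log2 fall, was 12.3 min for Egr1, 12.6 min for Fos and 15.8 min for Ier2. It was 15.9 and 19.5 min for Gm37120 and Gm17024, 24.6 min for Jun, 25.3 min for Btg2, between 33.0 and 49.9 min from Tulp2 to Ier3, and 86.7 and 98.6 min for Dusp2 and Map3k8. These are net values that include any new synthesis and are not mRNA half-lives. At 2 h the mean was below that at 1 h in all but 3 of the 16 genes, with a median change of -1.08 from 1 to 2 h. Map3k8 was among the 3, at 9.85 at 1 h and 10.97 at 2 h.

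**Figure D2:**
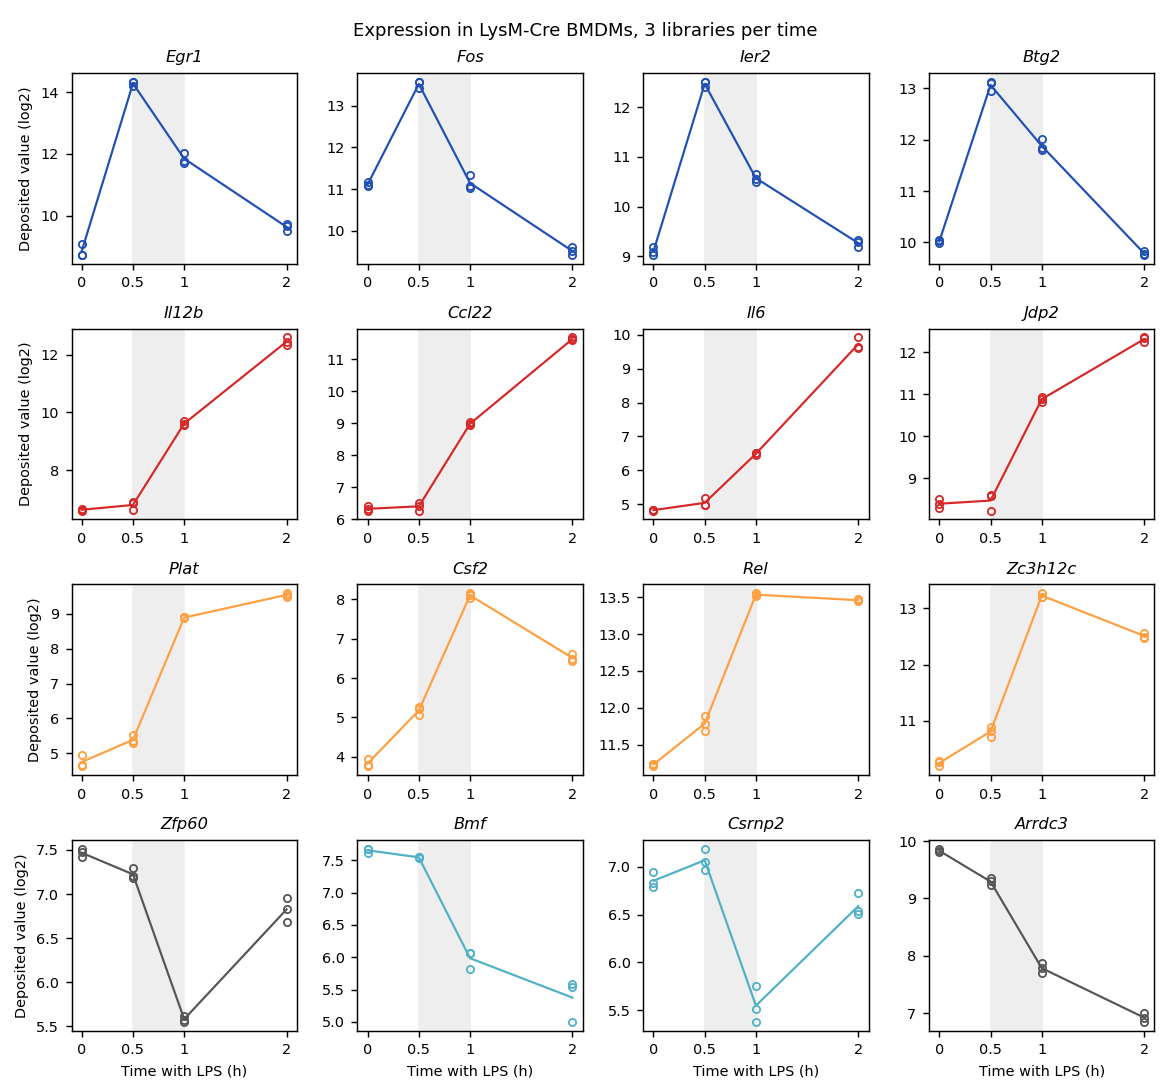
Deposited log2 values in each of 3 LysM-Cre libraries (circles) at 0, 0.5, 1 and 2 h of LPS, with lines through the group means and the step from 0.5 to 1 h shaded. The rows show genes that already decayed, genes that rose newly, genes that rose on and genes that fell in the step, of which Zfp60 and Csrnp2 were higher again at 2 h.

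The other immediate early genes took different courses. Of 24 listed immediate early transcription factors, 7 were called lower (against 12.8% of all genes), 9 higher (against 14.0%) and 8 were not called, with a median step of -0.06. Nr4a1, an orphan nuclear receptor, was at 8.88, 9.20 and 9.29 at 0.5 h and at 8.77, 8.82 and 9.01 at 1 h, and these overlapped. Its difference of -0.26 (SE 0.12, adjusted p 0.13) became a call in 4 of the alternatives (-0.26 to -0.41, adjusted p 0.00758 to 0.0416). Fosb gave -0.28 (SE 0.27, adjusted p 0.524) and rested on 1 library at 1 h, replicate 3 at 5.80 against 6.64 and 6.83, without which it was 0.03. Egr2 gave -0.17 (SE 0.07, adjusted p 0.0704), with calls in 4 alternatives (-0.24 to -0.32, adjusted p 0.00118 to 0.0179). Nr4a3, by contrast, rose newly by 1.79 (SE 0.12, adjusted p 1.51e-10). The bZIP gene Maff rose by a further 1.25 (SE 0.07, adjusted p 7.55e-12), Fosl1, a late FOS family member, by 1.18 (SE 0.14, adjusted p 8.28e-07) and Csrnp1, a nuclear protein gene, by 0.87 (SE 0.07, adjusted p 1.8e-09).

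The genes that rose newly held 3 of the 22 listed cytokine and growth factor genes tested and 2 of the 16 chemokine genes. Over all 13901 genes tested, 64 rose newly. An interleukin and a chemokine gene had the largest rises among the new risers. Il12b, which codes for the p40 chain shared by IL-12 and IL-23, was at 6.87, 6.92 and 6.64 at 0.5 h and at 9.59, 9.70 and 9.56 at 1 h. The libraries were far apart, and the rise was 2.81 (SE 0.11, adjusted p 2.58e-14) after 0.17 in the first step. Ccl22, a chemokine that attracts CCR4-bearing T cells, went from 6.42, 6.27 and 6.52 to 8.96, 9.03 and 8.97, a rise of 2.58 (SE 0.11, adjusted p 6.67e-14). Il6 went from 4.98, 5.17 and 4.96 to 6.51, 6.45 and 6.50, a rise of 1.45 (SE 0.12, adjusted p 3.22e-09) that was still early in its course, since its mean was 9.72 at 2 h. Jdp2, an AP-1 repressor of the bZIP family, rose by 2.41 (SE 0.08, adjusted p 2.23e-15), from 8.23, 8.60 and 8.59 to 10.82, 10.94 and 10.90.

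Another 5 of the named new risers rose by between 2.03 and 2.35. Adamts4, a metalloproteinase of the extracellular matrix, rose by 2.35 (SE 0.12), Il4i1, a secreted amino acid oxidase, by 2.27 (SE 0.15), and Edn1, the precursor of endothelin, by 2.22 (SE 0.12). Cav1, the main caveolar coat protein, rose by 2.06 (SE 0.09) and D8Ertd82e by 2.03 (SE 0.08). The adjusted p of these 5 genes was at most 2.02e-10 and their libraries did not overlap. Among all 64 genes the median step was 1.45 and the range 1.01 to 2.81. The mean at 2 h was above that at 1 h in 50 of the 64, with a median further change of 0.73.

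Plat, Olr1 and Csf2 had the 3 largest rises of the step, and all 3 had been called higher by 0.5 h. Plat, which codes for tissue plasminogen activator, was at 5.34, 5.54 and 5.28 at 0.5 h and at 8.91, 8.89 and 8.87 at 1 h. It rose by 3.50 (SE 0.11, adjusted p 1.38e-15), or 11.3-fold, after 0.63 in the first step. Olr1, a scavenger receptor for oxidised lipoprotein, rose by 3.20 (SE 0.10, adjusted p 1.38e-15), and Csf2, which codes for GM-CSF, by 2.93 (SE 0.13, adjusted p 1.7e-13). Csf2 went from 5.06, 5.21 and 5.25 to 8.16, 8.03 and 8.12, and had fallen back to a mean of 6.51 at 2 h. Il1a, called higher in both steps, rose by 2.73 (SE 0.07, adjusted p 4.84e-17) and Il23a, the partner chain of p40 in IL-23, by 2.71 (SE 0.14, adjusted p 4.03e-12). Tnfsf4, the OX40 ligand, rose by 2.62 (SE 0.09, adjusted p 2.29e-15) and Zc3h12c, of the regnase family of RNA-degrading enzymes, by 2.43 (SE 0.05, adjusted p 1.48e-17). Ifnb1, which codes for interferon beta, went from 6.31, 6.41 and 6.30 to 9.14, 9.11 and 8.73. Its rise of 2.65 (SE 0.12, adjusted p 6.91e-13) followed a first step of 0.26 that was not called (adjusted p 0.277). That value lies just past the limit of 0.25 for a new rise, and without a call it did not count as rising on, so Ifnb1 entered neither class. Of the 190 genes that rose at least 2-fold, 58 had their highest mean at 1 h and 132 at 2 h.

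By gene list, the median step was highest among cytokine, effector, chemokine and NF-κB genes. Of 22 cytokine and growth factor genes tested, 17 were called higher (against 14.0% of all genes) and 1, Vegfa, lower (against 12.8%), with a median step of 1.28. Il1b rose by 2.21 (SE 0.08, adjusted p 1.13e-14) and Csf1 by 1.93 (SE 0.06, adjusted p 9.02e-16). Tnf, already near its height at 15.66, 15.76 and 15.78 at 0.5 h, rose by only 0.46 (SE 0.06, adjusted p 2.06e-06) to 16.13, 16.15 and 16.29. The call of Il10 (0.44, SE 0.13, adjusted p 0.0188) was lost in 5 alternatives (0.28 to 0.43, adjusted p 0.0532 to 0.228). That of Vegfa (-0.25, adjusted p 0.0491) was lost in 11.

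Chemokines were called higher in 13 of 16 genes (median 1.06), against 14.0% of all genes, and 9 of them rose at least 2-fold, against 1.37%. Cxcl3, a neutrophil chemokine, rose by 2.23 (SE 0.09, adjusted p 1.2e-13), Ccl2, which attracts monocytes, by 1.33 (SE 0.07, adjusted p 1.57e-12) and Ccl4 by 1.07 (SE 0.05, adjusted p 2.03e-12). Prostaglandin, nitric oxide and effector genes were called higher in 18 of 21 (median 1.15), again against 14.0%, among them the adhesion molecule gene Icam1 by 1.89 (SE 0.08, adjusted p 2.71e-13). Cd83, a surface marker of activation, rose by 1.88 (SE 0.05, adjusted p 3.73e-16). Nos2, inducible nitric oxide synthase, was at a mean of 6.01 at 0.5 h and 6.13 at 1 h and was not called.

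NF-κB subunits and feedback inhibitors were called in 16 of 18 genes, all higher, against 14.0% of all genes called higher, with a median step of 0.93. Rel, which codes for the subunit c-Rel, went from 11.69, 11.88 and 11.78 to 13.53, 13.56 and 13.52. The libraries did not overlap, and the rise was 1.75 (SE 0.05, adjusted p 8.05e-16). Tnip1, a partner of the deubiquitinase A20, rose newly by 1.24 (SE 0.05, adjusted p 8.57e-14), Tnip3 by 1.14 (SE 0.05, adjusted p 1.01e-13) and Nfkbib, which codes for IκBβ, by 1.02 (SE 0.04, adjusted p 3.13e-14). Nfkbia, which codes for IκBα and had risen by 2.78 in the first step, added 0.15 (adjusted p 0.0063). That is about as large as the move of the median step of all genes under the shift to equal reference genes (-0.15).

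MAP kinase feedback regulators split, with 9 of 16 called higher and 5 lower, against 14.0% and 12.8% of all genes. The 5 include Map3k8, which the list holds although TPL-2 acts upstream of ERK. Errfi1, an inhibitor of EGF receptor family signalling, rose by 1.95 (SE 0.07, adjusted p 1.73e-14), Spry1, a Sprouty inhibitor, by 1.38 (SE 0.11, adjusted p 1.92e-09) and the ERK phosphatase gene Dusp5 by 1.04 (SE 0.07, adjusted p 2.35e-10). Dusp16, a phosphatase for JNK and p38, rose by 0.72 (SE 0.05, adjusted p 7.43e-11). Dusp6, the cytoplasmic ERK phosphatase gene, went the other way, from 9.67, 9.52 and 9.65 to 8.48, 8.39 and 8.65, a fall of 1.11 (SE 0.06, adjusted p 2.11e-11) with no overlap. The genes of mRNA decay and deadenylation split as well, with 7 of 16 called higher and 3 lower, against the same shares. Zc3h12a, which codes for regnase-1, rose by 1.05 (SE 0.04, adjusted p 8.79e-15) while Zfp36 and its relative Zfp36l2 fell, the latter by 1.12 (SE 0.05, adjusted p 4.04e-13).

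Survival and apoptosis regulators were called higher in 11 of 16 genes (against 14.0% of all genes) and lower in 2, a number near the 12.8% of all genes. Bcl2l11, which codes for the pro-apoptotic protein BIM, rose by 1.56 (SE 0.04, adjusted p 3.73e-16), the anti-apoptotic Bcl2a1b by 1.44 (SE 0.06, adjusted p 4.68e-14) and Cflar, the caspase-8 inhibitor c-FLIP, by 1.42 (SE 0.09, adjusted p 4.71e-11). Bcl2a1b is 1 of several near-identical copies, so its value is uncertain. The 2 were Gadd45g and Bbc3, which codes for PUMA, and they fell by 0.80 (SE 0.10, adjusted p 2.16e-06) and 0.68 (SE 0.06, adjusted p 6.22e-09).

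Interferon-stimulated genes showed few changes by 1 h. Of 20 listed genes 2 were called, both higher, a share of 10.0% against 26.8% of all genes, with a median step of -0.03. They were Oasl1 (0.48, SE 0.14, adjusted p 0.0156) and Isg15 (0.42, SE 0.14, adjusted p 0.0236), and these calls were lost in 3 and 6 alternatives. From 1 to 2 h the median change of the same 20 genes was 1.47.

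Macrophage receptors and lineage factors were called higher in 7 and lower in 7 of 30 genes, against 14.0% and 12.8% of all genes, with a median of 0.00. Tlr2 rose by 1.16 (SE 0.10, adjusted p 2.08e-08) and Cd14 by 0.54 (SE 0.05, adjusted p 1e-07), whereas Tlr4, the LPS receptor itself, fell by 0.38 (SE 0.05, adjusted p 1.96e-06), from 11.54, 11.53 and 11.64 to 11.17, 11.15 and 11.25. The cannabinoid receptor gene Cnr2 fell by 1.07 (SE 0.08, adjusted p 5.34e-10). Of 12 reference genes 3 were called higher and 2 lower, against the same shares. The called rises of Eef1a1, Rplp0 (both 0.13) and Ywhaz (0.18) were lost after quantile normalisation and after the shift to equal reference genes, and the sign of Eef1a1 turned in the latter and that of Rplp0 in both.

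**Figure D3:**
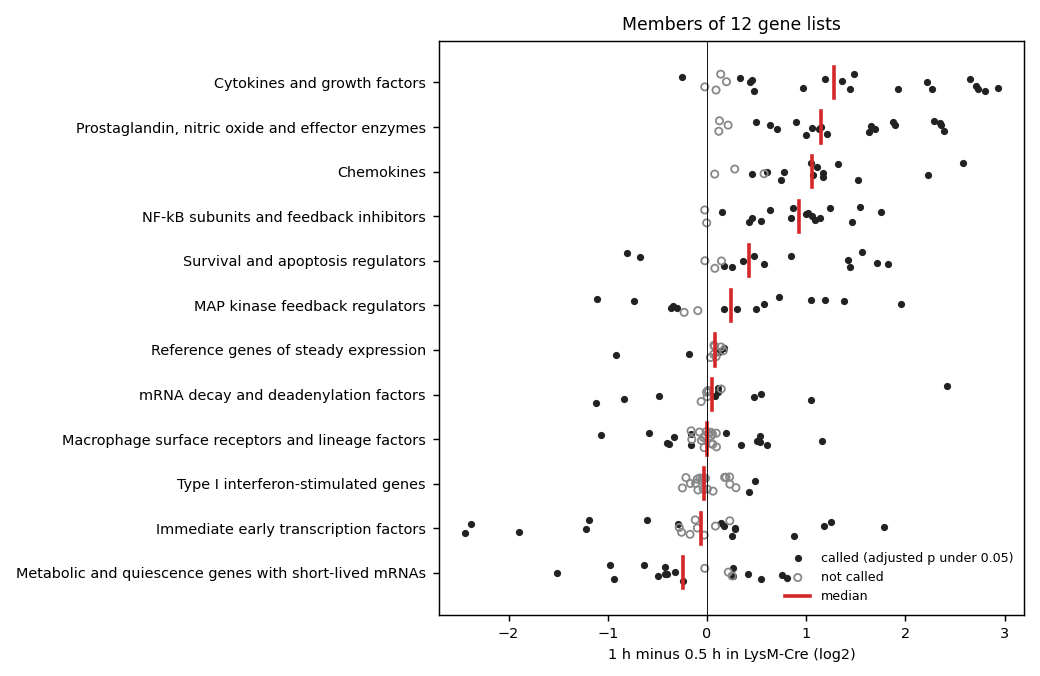
Each point is the step from 0.5 to 1 h in LysM-Cre (log2) of 1 member of 12 gene lists, filled where the adjusted p was under 0.05, with the list's median as a red bar. Cytokines, effector genes (enzymes and surface proteins), chemokines and NF-κB genes have medians between 0.93 and 1.28, interferon-stimulated genes lie around 0, and the immediate early list spreads from -2.44 to 1.79.

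Other genes fell without an earlier rise. Bmf, which codes for a pro-apoptotic BH3-only protein, went from 7.56, 7.55 and 7.53 to 6.07, 6.07 and 5.82, a fall of 1.56 (SE 0.11, adjusted p 4.26e-10). Csrnp2 went from 7.19, 7.05 and 6.97 to 5.76, 5.38 and 5.51, a fall of 1.52 (SE 0.10, adjusted p 1.14e-10), and was back at a mean of 6.59 at 2 h. Lpar6, a receptor for lysophosphatidic acid, fell by 1.31 (SE 0.07, adjusted p 6.97e-12) and 2810021J22Rik by 1.30 (SE 0.09, adjusted p 4.71e-10). None of these libraries overlapped between the times. Genes of metabolism and quiescence with short-lived mRNAs were called lower in 10 of 19 (against 12.8% of all genes) and higher in 6 (against 14.0%). Arrdc3, an arrestin domain protein, fell by 1.51 (SE 0.06, adjusted p 1.26e-14) after -0.54 in the first step, and Txnip, the thioredoxin-binding regulator of glucose uptake, by 0.94 (SE 0.05, adjusted p 9.64e-12) after -1.08. The largest fall of any gene, of 2.97, was in Gm4294, whose SD at 0.5 h was 1.23. The number of genes that fell newly, 39, depended on the processing. It was 12 with a pseudocount of 10, 22 after quantile normalisation, 81 with libraries shifted to equal reference genes and 75 without replicate 3 at 0.5 h.

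Zinc finger protein genes stood out among the falls, a grouping chosen after the values were seen. Of 320 tested genes whose symbols begin with Zfp and a digit, most of which code for DNA-binding proteins and a few, such as Zfp36, for RNA-binding ones, 214 were called lower (66.9%) and 17 higher (5.31%). Among the 13563 genes left after Zscan and Zkscan genes were also set aside, 11.4% were called lower and 14.2% higher. The median step of the Zfp genes was -0.42, and it was -0.40 within the high 18S set and -0.43 within the low set. Their median level was 6.98 against 8.51 for the other genes, and its part in the result was not tested. A further 14 of 18 Zscan and Zkscan genes were called lower. Zfp60 went from 7.20, 7.18 and 7.29 to 5.58, 5.62 and 5.55, a fall of 1.64 (SE 0.07, adjusted p 3.25e-13) with no overlap. Zfp128 fell by 1.57 (SE 0.10, adjusted p 9.93e-11), Zfp763 by 1.47 (SE 0.14, adjusted p 3.15e-08) and Zfp27 by 1.24 (SE 0.10, adjusted p 2.14e-09). Of the 27 Zfp genes that fell at least 2-fold, 25 had a higher mean at 2 h than at 1 h, with a median gain of 0.76 over all 27. Of all 69 genes with such a fall, 49 were higher at 2 h than at 1 h, and these comparisons share the 1 h libraries.

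**Figure D4:**
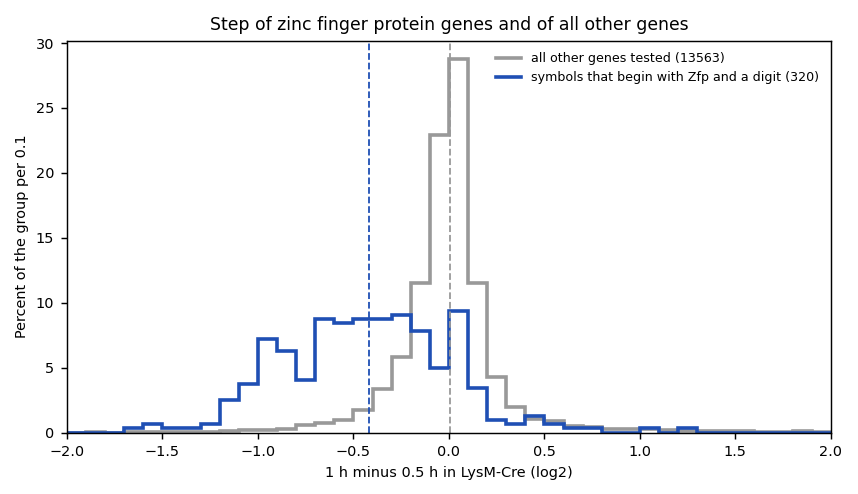
Distribution of the step from 0.5 to 1 h in LysM-Cre (log2, bins of 0.1) as a percent of 320 Zfp genes and of 13563 other genes (Zscan and Zkscan genes left out), with dashed lines at the medians. The Zfp genes centre on -0.42 and the other genes on 0.00.

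The rebounding genes were small in number and size. Trp53rka, a kinase gene of the p53-related family, was lower by 0.27 at 0.5 h and then rose by 0.80 (SE 0.07, adjusted p 5.18e-09). Alkbh1, a demethylase, rose by 0.71 (SE 0.07, adjusted p 1.93e-07) after -0.41, and Zfp747 by 0.55 (SE 0.08, adjusted p 9.22e-06) after -0.40. Of the 21 genes 12 code for protein, and the median step was 0.44. The count of 21 was 13 without replicate 2 at 0.5 h, 40 after quantile normalisation and 9 with libraries shifted to equal reference genes.

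The classes also differed in gene structure, on which their definition does not rest. Protein-coding genes that already decayed spanned a median of 3427 bp of the genome (14 genes) and held a median of 2.5 exons per transcript, against 23769.5 bp and 8.5 exons for all protein-coding genes tested. Genes that held their level were also short (5594.5 bp, 10 genes). Those that rose on spanned 14810 bp (100 genes), and those that rose newly 25525 bp (57 genes). Genes that fell newly spanned 15518 bp (37 genes) and those that rebounded 19107.5 bp (12 genes). Median exon numbers were 3.5 (held), 5 (rose on and fell newly), 6.5 (rose newly) and 7 (rebounded). The pentamer ATTTA, the core of AU-rich elements, occurred at a median of 3.56 per kb in the longest annotated 3′ UTR of decaying genes. It was at 2.64 per kb in genes that held and 2.55 per kb in genes that rose on. The median was 1.61 per kb both in genes that rose newly and in genes that fell newly, 0.93 per kb in genes that rebounded and 1.32 per kb in all genes. The heptamer TATTTAT was present in 9 of 14 decaying genes (64.3%), 59 of 100 that rose on (59.0%), 5 of 10 that held (50.0%), 23 of 57 that rose newly (40.4%) and 13 of 36 that fell newly (36.1%), each share above the 30.18% of all genes. Fos held 4 pentamers in a 3′ UTR of 815 bases, Zfp36 held 3 in 774 bases, and Ier2, next to Fos in the size of its fall, held 0 in 755 bases.

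Promoter windows from RefSeq (GRCm38.p6, 250 bases before to 50 after the start site) were matched by symbol for 9148 tested protein-coding genes, 10 of them in the decaying class. Shares by class and for tested genes count these genes, each matched if any of its windows held the motif. Shares of all windows are per window, so the measures differ. They were searched on both strands for TATAAA, for the CArG box, for a κB motif (GGG, any 2 bases, TTTCC), for the AP-1 motif TGANTCA and for the cAMP response element TGACGTCA, the last 2 added after the data were seen. TGACGTCA was present in 4 of the 10 windows of decaying genes (40.0%), in 1 of 12 of genes that rebounded (8.33%) and in 5 of 77 of genes that rose on (6.49%). It was in 1 of 45 of genes that rose newly (2.22%), in 1 of 32 of genes that fell newly (3.13%) and in 0 of 8 of genes that held. These shares stand against 3.68% of tested genes and 1.79% of all 32851 windows. TATAAA was present in 3 of the 10 windows of decaying genes, in 3 of 8 windows of genes that held and in 1 of 12 of genes that rebounded (8.33%). It was in 5 of 45 of genes that rose newly (11.1%), in 14 of 77 of genes that rose on (18.2%) and in 0 of 32 of genes that fell newly, against 8.52% of tested genes and 13.6% of all windows. The κB motif was present in 6 of 77 windows of genes that rose on (7.79%), in 2 of 45 of genes that rose newly (4.44%) and in 2 of 32 of genes that fell newly (6.25%). It was in 0 of the 10 of decaying genes, 0 of 8 of genes that held and 0 of 12 of genes that rebounded, against 2.13% of tested genes and 1.63% of all windows. TGANTCA was present in 12 of 77 windows of genes that rose on (15.6%), in 3 of 45 of genes that rose newly (6.67%) and in 4 of 32 of genes that fell newly (12.5%). It was in 1 of 12 of genes that rebounded (8.33%), in 0 of 8 of genes that held and in 0 of the 10 of decaying genes, against 6.34% of tested genes and 7.81% of all windows. The CArG box was present in 1 of the 10 windows of decaying genes (10.0%), in 1 of 8 of genes that held (12.5%) and in 1 of 12 of genes that rebounded (8.33%). For genes that fell newly it was 1 of 32 (3.13%), for those that rose on 1 of 77 (1.30%) and for those that rose newly 0 of 45. These shares stand against 1.48% of tested genes and 1.63% of all windows. With 10 windows these shares are coarse, and a match does not show binding. Egr1, Ier2, Map3k8 and Gm17334 of the decaying class had no window and were not searched. Sites more than 250 bases before the start site were not searched in any gene, so a missing match does not show that a gene lacks the motif. The 4 windows with TGACGTCA follow because they belong to 4 genes that decayed at different rates, with each motif match in capitals, Ppp1r15a holding a TATAAA as well. The match begins at -166 in Btg2, -62 in Plk2, -143 in Dusp1 and -12 in Ppp1r15a, counted from the start site.

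Btg2 (chr1:134079106-134079405, minus strand): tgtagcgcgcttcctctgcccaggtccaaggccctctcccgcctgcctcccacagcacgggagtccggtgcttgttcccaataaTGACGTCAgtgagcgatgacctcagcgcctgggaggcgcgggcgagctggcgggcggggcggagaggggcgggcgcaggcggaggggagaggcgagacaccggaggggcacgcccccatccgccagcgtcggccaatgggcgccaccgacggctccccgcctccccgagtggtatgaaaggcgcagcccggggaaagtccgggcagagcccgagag

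Plk2 (chr13:110394794-110395093, plus strand): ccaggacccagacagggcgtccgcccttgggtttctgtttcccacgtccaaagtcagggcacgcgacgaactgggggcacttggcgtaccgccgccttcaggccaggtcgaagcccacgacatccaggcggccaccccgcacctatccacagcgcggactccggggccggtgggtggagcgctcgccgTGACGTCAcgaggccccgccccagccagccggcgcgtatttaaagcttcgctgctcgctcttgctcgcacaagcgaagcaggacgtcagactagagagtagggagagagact

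Dusp1 (chr17:26508423-26508722, minus strand): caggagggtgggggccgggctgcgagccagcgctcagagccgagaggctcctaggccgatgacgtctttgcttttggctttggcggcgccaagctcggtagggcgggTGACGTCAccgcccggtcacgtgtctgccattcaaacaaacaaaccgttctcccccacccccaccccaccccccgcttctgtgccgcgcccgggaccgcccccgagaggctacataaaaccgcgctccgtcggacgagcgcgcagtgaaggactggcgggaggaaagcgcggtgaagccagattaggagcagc

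Ppp1r15a (chr7:45526219-45526518, minus strand): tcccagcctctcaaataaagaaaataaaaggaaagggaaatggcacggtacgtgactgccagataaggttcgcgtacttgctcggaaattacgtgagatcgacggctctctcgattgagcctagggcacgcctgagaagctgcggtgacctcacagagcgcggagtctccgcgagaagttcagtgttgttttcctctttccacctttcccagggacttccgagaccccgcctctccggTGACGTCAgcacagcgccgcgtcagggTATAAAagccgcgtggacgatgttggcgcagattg

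The next windows show the CArG box of Zfp36 at -58, the κB match of Il6, a gene that rose newly, at -44, beside an AP-1 match at -249, and a pair of κB matches in Cxcl1, a gene that rose on (1.17, adjusted p 2.6e-06), at -89 and -71.

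Zfp36 (chr7:28379179-28379478, minus strand): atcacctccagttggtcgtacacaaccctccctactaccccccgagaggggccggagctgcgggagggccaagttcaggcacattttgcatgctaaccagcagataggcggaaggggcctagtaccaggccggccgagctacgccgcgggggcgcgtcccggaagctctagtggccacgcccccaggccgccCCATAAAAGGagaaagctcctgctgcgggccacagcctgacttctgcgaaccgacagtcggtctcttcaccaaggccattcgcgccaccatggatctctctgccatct

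Il6 (chr5:30012864-30013163, plus strand): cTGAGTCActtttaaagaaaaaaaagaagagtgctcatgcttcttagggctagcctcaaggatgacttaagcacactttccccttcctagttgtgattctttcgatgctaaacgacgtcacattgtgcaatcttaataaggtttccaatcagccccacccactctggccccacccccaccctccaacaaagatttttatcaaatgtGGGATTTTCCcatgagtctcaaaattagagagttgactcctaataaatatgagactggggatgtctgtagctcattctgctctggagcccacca

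Cxcl1 (chr5:90890995-90891294, plus strand): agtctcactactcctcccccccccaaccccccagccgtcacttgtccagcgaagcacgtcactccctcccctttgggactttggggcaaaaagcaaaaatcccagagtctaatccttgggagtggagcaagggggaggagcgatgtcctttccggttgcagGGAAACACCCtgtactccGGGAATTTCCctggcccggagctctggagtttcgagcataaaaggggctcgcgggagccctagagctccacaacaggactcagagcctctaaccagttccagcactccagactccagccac

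The same step in the libraries labelled FosKO was not used to sort genes into classes, although these libraries share the filter and the estimate of the spread with LysM-Cre. Fos was at 12.75 ± 0.09 (SD, n = 3) at 0.5 h and 12.78 ± 0.10 at 1 h there, and since the table gives Fos 1 value over all its exons, deleted or not, that value does not check the label. In these libraries 3819 genes were called in the step (27.5%), 2013 higher (14.5%) and 1806 lower (13.0%). The count of 3819 was 2101 with libraries shifted to equal reference genes and 2471 when only the groups compared were fitted. Of the 64 genes that rose newly in LysM-Cre, 60 were called higher, as were all 102 that rose on. Of the 39 that fell newly, 38 were called lower. Of the 16 that already decayed, 11 were called lower, and of the 17 that held, 11 were called higher and 1 lower. The Zfp genes gave a median of -0.41, with 207 of 320 called lower.

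The difference of the step between the genotypes was called for 147 genes (1.06%), 69 positive (0.496%) and 78 negative (0.561%). It was called in 8 of the 16 decaying genes, and all 8 were positive. In the libraries labelled FosKO, 5 of these genes were called lower by less than in LysM-Cre, and Fos (0.04), Zfp36 (-0.07) and Ppp1r15a (0.13) were not called. The LysM-Cre step that chose these genes is part of the difference, so this count is a description. Egr1 fell by 1.50 there against 2.44, a difference of 0.94 (SE 0.14, adjusted p 0.000644). Zfp36 was level there at -0.07 (adjusted p 0.46) against -0.83, a difference of 0.76 (SE 0.09, adjusted p 5.55e-05), whereas Dusp1 fell by 0.68 against 0.73, a difference of 0.05 (SE 0.05, adjusted p 0.756). Among the risers, Ifnb1 rose by 4.15 against 2.65, a difference of 1.50 (SE 0.18, adjusted p 3.58e-05), and Il6 by 2.43 against 1.45, a difference of 0.98 (SE 0.16, adjusted p 0.00214). Among called protein-coding genes with a linear mean of at least 50, the negative differences were largest in Adora2b, an adenosine receptor gene that rose by 1.72 in LysM-Cre and 0.38 there (-1.34, SE 0.12, adjusted p 4.72e-07), Ccl22 (-1.02, SE 0.15, adjusted p 0.000538), Cav1 (-0.93, SE 0.12, adjusted p 0.000122) and Oaf (-0.92, SE 0.15, adjusted p 0.00161). The count of 147 was 96 without LysM-Cre replicate 2 at 0.5 h and 264 with the replicate number as a block. It was 45 with libraries shifted to equal reference genes and 75 when only the groups compared were fitted. In the high 18S set alone the differences of Il6 (0.97, adjusted p 0.102), Cav1 (-0.82, adjusted p 0.069) and Oaf (-0.84, adjusted p 0.134) were no longer called, in a fit where 1 LysM-Cre library stands for 1 h and is assumed to vary like the other groups. By 18S set, high before low, the step of Ifnb1 was 2.78 and 2.62 in LysM-Cre and 4.04 and 4.36 in the libraries labelled FosKO, and that of Egr1 was -1.48 and -1.53 in the latter.

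**Figure D5:**
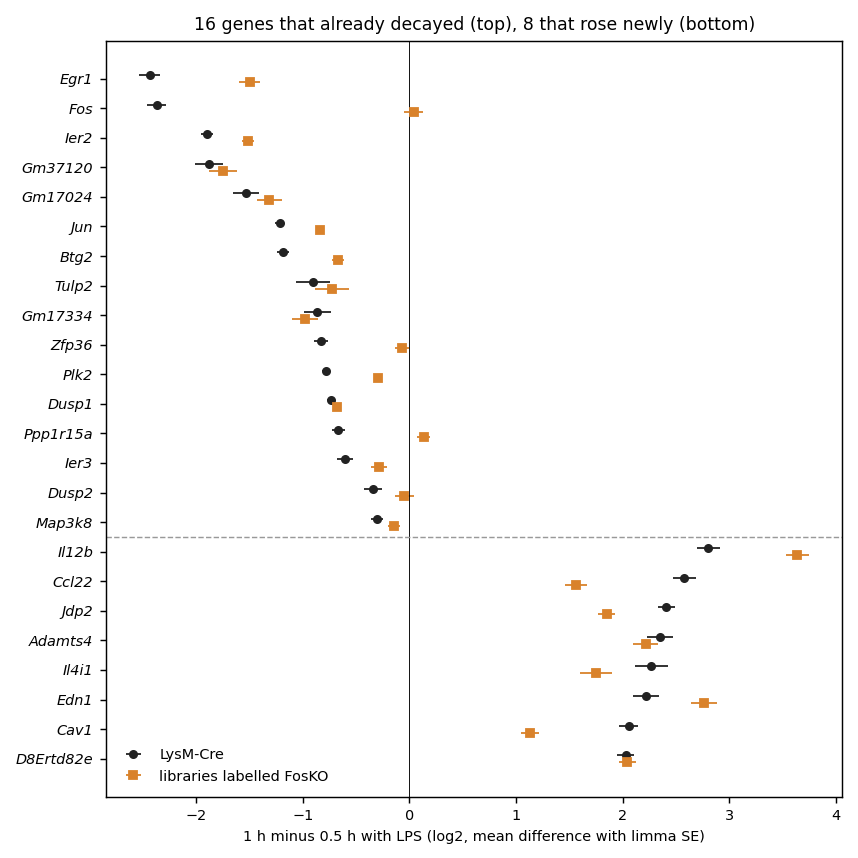
Step from 0.5 to 1 h (log2, mean difference with limma SE, 3 against 3 libraries) in LysM-Cre (circles) and in libraries labelled FosKO (squares) for the 16 genes that already decayed and 8 that rose newly. Fos, Zfp36 and Ppp1r15a lie near 0 in the FosKO libraries and below -0.6 in LysM-Cre, while Dusp1 lies at -0.73 in LysM-Cre and -0.68 in FosKO.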

How the data were processed

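RNA of 24 libraries (LysM-Cre and FosKO BMDMs at 0, 0.5, 1 and 2 h, 3 each) had been sequenced. The authors deposited 1 table of log2 values per gene, between -2.22 and 19.39. The transformation is not given in the sources used here. The values resemble a regularised log, which understates changes of low genes. The submitters' processing notes name STAR 2.5.2a, RSEM 1.2.31 and DESeq2 1.16.1. Counts were not used here, so the depth of each library is unknown, beyond the typical yield that the study's text gives. Genes at 5 or more on the linear scale in at least 3 libraries were kept. Limma 3.58.1 (R 4.3.3) fitted 8 group means with a trended variance (16 residual degrees of freedom), without a pseudocount or a block, and p-values were adjusted by Benjamini-Hochberg over all 13901 genes. An exact permutation test of 3 against 3 libraries cannot go below 0.1 and was not used. Of the table's genes 1017 had no symbol, and 32 tested genes equalled another gene in every library. The table held 0 columns of other samples.

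Gene structure came from GENCODE M21 (13873 of 13901 identifiers matched) and promoter windows from RefSeq. The members and the 12 lists were chosen with earlier results of these data known. Named genes were the 10 largest changes each way among called genes that code for protein, with a linear mean of at least 50 and no overlap, the 8 largest of the new risers and of the decaying genes, the 5 largest of each other class, up to 4 members per list and direction by limma's moderated statistic, the 4 largest differences between genotypes in each direction, and 10 fixed genes. Some genes that met this rule are not reported here. The AP-1 and cAMP response element motifs were added after the files were seen. On simulated data for the step, 96% of genes changed by 1 on the log2 scale and 85% of those changed by 0.5 were recovered, with 15 false among 196 calls over 13901 genes. The simulation changed 100 genes at each size and drew independent noise for each library. The libraries here correlated by 18S set, so these rates may not hold for them. In deviations from the group means, replicates with the same number correlated at r of 0.71, 0.38 and 0.33 between FosKO at 0.5 and 1 h. In LysM-Cre the values were 0.39, -0.25 and 0.41, and the main fit did not pair by number. LysM-Cre libraries of the same 18S set correlated between the times at 0.39 to 0.42, whatever their number. Those of different 18S sets correlated at -0.58 to -0.24. FosKO replicates 2 and 3 also correlated across numbers (0.30 in both crossings), and FosKO replicate 1 had low 18S at both times, so the number and the 18S set cannot be told apart. Figures were drawn with matplotlib 3.10.9.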

Additional observations from a re-analysis of the deposited data

Results flagged for a closer look

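The step from 0.5 to 1 h differed between FosKO and LysM-Cre for 147 genes by limma's interaction term with Benjamini-Hochberg adjustment. Each value given here for a single gene is the log2 step in the libraries labelled FosKO minus that in LysM-Cre.

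Many of the genes given here were named for their LysM-Cre step. That step is part of the difference, so the directions below are a description. Negative differences stood among genes that rose in LysM-Cre. They were -1.34 for Adora2b, -1.02 for Ccl22, -0.93 for Cav1, -0.92 for Oaf, -0.88 for the chemokine gene Cxcl3, -0.75 for Trp53rka, -0.73 for Olr1, -0.65 for Tnfsf4, -0.56 for Jdp2, -0.49 for Csf1 and -0.41 for Tnip1. The call was lost in 1 alternative for Cav1 and Oaf, in 2 for Cxcl3, Csf1 and Tnip1, and in 3 for Olr1, Tnfsf4 and Jdp2.

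Positive differences were led by Ifna2 (3.74), an interferon alpha gene that belongs to a family of near-identical copies and is therefore uncertain. Fos followed at 2.41, a value from the locus that the FosKO label names as deleted. The cytokine genes Ifnb1, Il6 and Il12b differed by 1.50, 0.98 and 0.84. Among genes that had already decayed in LysM-Cre, the difference was 0.94 for Egr1, 0.80 for Ppp1r15a, 0.76 for Zfp36, 0.52 for Btg2, 0.49 for Plk2, 0.38 for Jun and 0.38 for Ier2. Other genes with a fall or little change in LysM-Cre gave 0.73 for Id3, 0.72 for Phlda1, 0.52 for Zfp36l2, 0.44 for Dusp6, 0.43 for Rgs2 and 0.30 for the complement receptor gene C5ar1. The call was lost in 12 alternatives for Id3, in 5 for Ier2, in 3 for Dusp6, in 2 for C5ar1 and in 1 for Il6, Il12b and Jun.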

How the results depend on the processing

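Alternatives were run for the counts of calls, the counts of the classes and the median exon number of decaying genes. Of these values under an alternative, 271 stayed close to the main value and 30 moved. Quantile normalisation gave 22 genes that fell newly and 40 that rebounded. A shift to equal reference genes gave 566 genes higher, 3569 lower and 140 lower by at least 2-fold, 58 that rose on, 81 that fell newly, 9 that rebounded, 439 calls in the first step, 2101 in the FosKO step and 45 in the difference. A pseudocount of 10 gave 29 genes lower by at least 2-fold and 12 that fell newly. Fitting only the groups compared gave 2471 calls in the FosKO step and 75 in the difference. The high 18S set alone, with 1 LysM-Cre library at 1 h assumed to vary like the other groups, gave 2010 calls in the step (1046 higher, 964 lower), 59 in the difference, 26 genes that held and 13 that rebounded. A class threshold of 0.58 gave 189 new risers, 172 that rose on, 231 that fell newly and 46 that held. By construction, the 18S set had fewer libraries, the classes a lower threshold and the shift to reference genes a lower median step. Beyond that, the cause of these shifts was not tested.

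With the replicate block the difference counted 264 genes, against 147, and no other count moved by over 1.5 times (step 2179 higher and 1951 lower).

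Leaving out 1 library at a time gave 3136 to 3451 calls in the step (1602 to 1820 higher, 1513 to 1631 lower), 184 to 201 higher and 64 to 128 lower by at least 2-fold, 3091 to 3495 in the FosKO step, 96 to 145 in the difference and 713 to 885 in the first step. The classes then held 64 to 76, 95 to 103, 16 to 17, 38 to 75, 18 to 22 and 13 to 20 genes (rise newly, rise on, already decay, fall newly, hold, rebound).

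Among 109 genes that met the naming rule the step lost its call or turned its sign in some alternative for 17, and 17 of their 30 called differences did so. Leaving out 1 library, the step of Fosb ranged from -0.48 to 0.0311, positive without replicate 3 at 1 h, and that of Lyz2 from -0.18 to 0.0257, positive without replicate 2 at 0.5 h. With the shift to reference genes the sign turned for Phlda1, whose step became -0.0744, for Eef1a1, -0.0277, and for Rplp0, -0.0238. Rplp0 was -0.0015 after quantile normalisation.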
